A study of Mus musculus with 10 samples.

Results

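The genes described here are pendrin and 6 other genes of acid-base transport, namely Slc26a4 (pendrin), Slc26a7, Foxi1, Atp6v1b1, Atp6v0a4, Car2 and Car12. They were picked by symbol and not by a threshold on their values, and are 7 of the 32285 genes counted in each library. The libraries are droplet-based single-cell libraries of the cochlea and the vestibular organs of wild-type CBA/J mice aged 22 months, with no treatment other than aging. Each library pooled 7 to 8 mice, so the spread between libraries is that between pools and dissections. The labels call the tissue sensory epithelium, taken from microdissected whole organs, and the kept cells included erythroid, immune, stromal and neural cells. Of the 5 libraries deposited per organ, replicates 1 and 2 held the same cells: 1313 barcodes in the cochlea and 1633 in the vestibule were shared, and their gene totals differed by less than the sampling noise. They were counted as 1 sample, which left replicates 1, 3, 4 and 5 of each organ, and any other pair of these libraries shared at most 41 barcodes. After filtering, 7272 cochlear and 10424 vestibular cells remained, with 2061435 to 20118973 unique molecular identifiers (UMIs, each a transcript molecule counted once) per library, and replicate 3 held the most cells in both organs.

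Pendrin exchanges chloride for bicarbonate and secretes bicarbonate into the endolymph, the fluid that bathes the hair bundles. Its loss causes deafness with an enlarged vestibular aqueduct. Slc26a7 is a related anion exchanger. Foxi1 is a forkhead transcription factor known to drive pendrin and the proton pump in the mitochondria-rich cells of the endolymphatic sac and the kidney, and Atp6v1b1 and Atp6v0a4 encode the tissue-restricted B1 and a4 subunits of that pump, the vacuolar proton ATPase (V-ATPase). Carbonic anhydrases interconvert carbon dioxide and bicarbonate, Car2 in the cytosol and Car12 at the outer face of the cell membrane.

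On GRCm38 the genes lie at chr12:31519827-31559969 (Slc26a4, minus strand), chr4:14502430-14621805 (Slc26a7, minus strand), chr11:34204338-34208089 (Foxi1, minus strand), chr6:83742990-83758855 (Atp6v1b1, plus strand), chr6:38048483-38124586 (Atp6v0a4, minus strand), chr3:14886273-14900770 (Car2, plus strand) and chr9:66713686-66766845 (Car12, plus strand). Because Foxi1 is a forkhead factor, the RefSeq promoter windows of the genes (GRCm38.p6, 250 bases before to 50 bases after the gene start) were searched on both strands for the forkhead core motif TGTTTA, whose reverse complement is TAAACA. Windows were at hand for Slc26a4, Foxi1, Atp6v1b1, Atp6v0a4 and Car12, but not for Slc26a7 and Car2. The motif was found in 2 of the 5 windows, and in 4416 of the 32851 RefSeq windows (13.4%). The 3 windows below are shown for pendrin, which has no match, and for the 2 genes with a match, 98 bases before the start of Atp6v1b1 and 11 bases before the start of Car12, counted from the RefSeq starts, which differ from the GENCODE bounds given above for some genes. They are printed along the strand of the gene, with the motif in capitals, from chr12:31559935-31560234 (minus strand), chr6:83742767-83743066 (plus strand) and chr9:66713436-66713735 (plus strand). A match describes the letters of the window and is not evidence that Foxi1 binds there.
Slc26a4: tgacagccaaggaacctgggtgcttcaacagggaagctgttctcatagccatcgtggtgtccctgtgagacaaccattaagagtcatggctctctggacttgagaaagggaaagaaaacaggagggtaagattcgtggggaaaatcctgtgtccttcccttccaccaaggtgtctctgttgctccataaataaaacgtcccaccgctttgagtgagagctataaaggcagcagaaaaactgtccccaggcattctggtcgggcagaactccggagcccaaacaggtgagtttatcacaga
Atp6v1b1: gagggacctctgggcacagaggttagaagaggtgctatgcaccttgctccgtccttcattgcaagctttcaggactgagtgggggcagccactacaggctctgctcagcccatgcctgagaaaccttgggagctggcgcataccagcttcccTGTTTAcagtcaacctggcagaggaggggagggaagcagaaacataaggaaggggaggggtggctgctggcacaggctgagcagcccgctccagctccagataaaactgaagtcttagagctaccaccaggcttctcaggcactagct
Car12: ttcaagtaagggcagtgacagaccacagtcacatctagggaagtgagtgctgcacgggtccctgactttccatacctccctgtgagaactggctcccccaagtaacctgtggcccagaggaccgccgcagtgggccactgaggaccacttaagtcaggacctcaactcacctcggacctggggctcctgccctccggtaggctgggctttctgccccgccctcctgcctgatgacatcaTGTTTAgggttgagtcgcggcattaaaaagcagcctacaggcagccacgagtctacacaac

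Cells of each organ were clustered without the 7 genes and without the other acid-base genes named below, so that these genes did not shape the clusters. Clusters were named only from lists of marker genes, as cells resembling hair cells (HCs; cochlear cHCs and vestibular vHCs), supporting cells, fibrocytes and so on, and all others are called by their leading genes. A level is the count of a gene per 1000000 UMIs (CPM) of a class or cluster in 1 library, and is given as the mean ± SD over the libraries with at least 10 such cells. Levels are compared between cells, not between genes. The levels per class are a description without a test, because the classes were themselves built from the same counts.

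**Figure D1:**
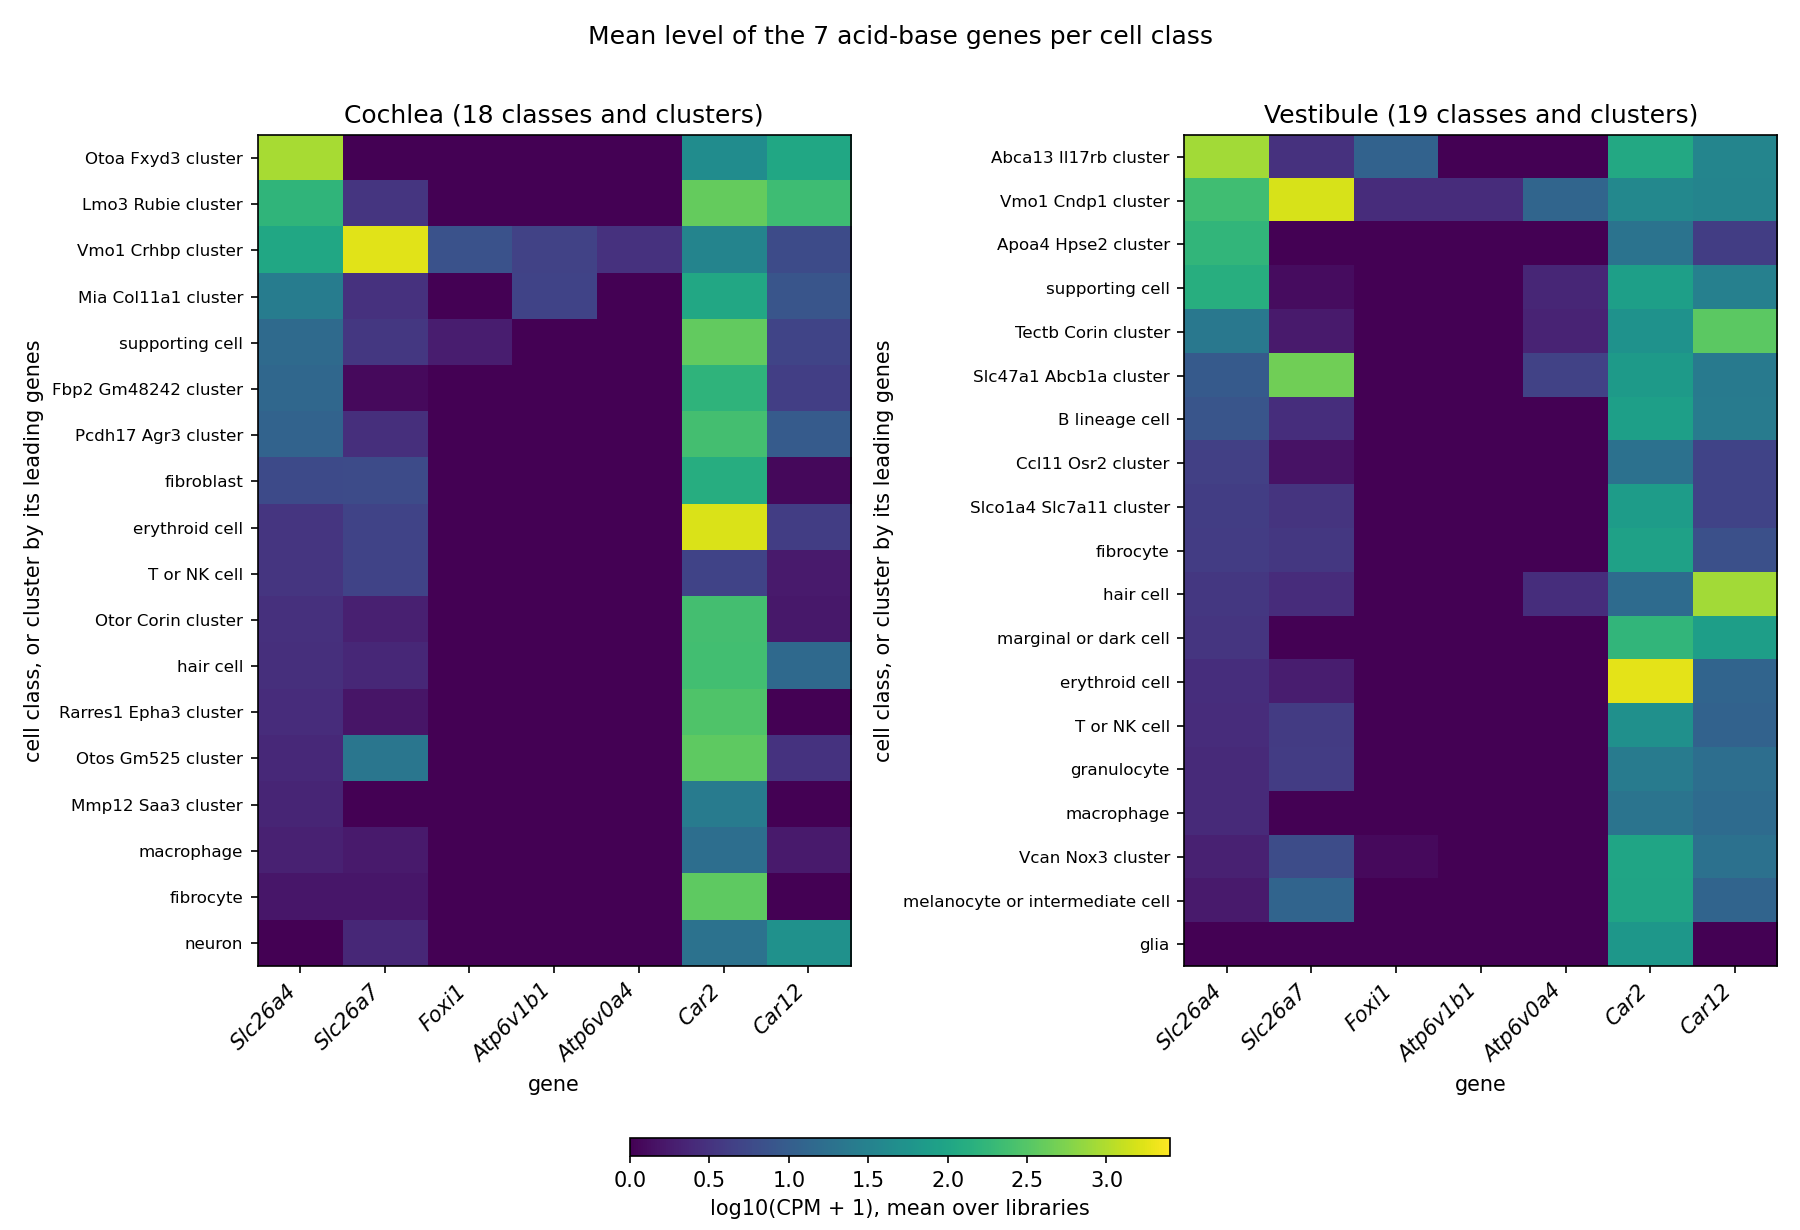
Mean level of the 7 genes (columns) in each class or cluster (rows) of the cochlea, left, and the vestibule, right, as log10(CPM + 1) averaged over libraries, with rows ordered by Slc26a4. Slc26a4 was highest in 1 epithelial cluster per organ, Slc26a7 in the Vmo1 clusters, Car2 in erythroid cells and Car12 in vHCs, and Foxi1, Atp6v1b1 and Atp6v0a4 reached at most 12 CPM and were at 0 in most rows. Rows have at least 2 libraries each.

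Pendrin had its highest level in 1 small nonsensory epithelial cluster of each organ. In the cochlea this was a cluster of 220 cells led by Otoa, Slc26a4, Fxyd3, Ceacam16 and Bcam, with 42.6% of all cochlear Slc26a4 UMIs. The 3 libraries with at least 10 of these cells gave 912, 1112 and 718 CPM (replicates 3, 4 and 5), with a mean of 914 ± 197 (SD, n = 3). Replicate 1 held 9 such cells and gave no level. Under other settings the highest cochlear cluster was chosen anew and need not hold the same cells. It had 170 CPM at a clustering resolution of 0.5, where the second cluster at resolution 1, described below, had 167 CPM. It had 207 CPM with at least 2000 UMIs and under 10% mitochondrial UMIs per cell. With acid-base genes among the variable genes it had 576 CPM. Otoa and Ceacam16 encode proteins of the tectorial membrane and its attachment and are known from interdental cells. The cluster of 220 cells also held Epyc, P2rx2 and Kcnj16, which were listed for outer sulcus or root cells, and was therefore left unnamed.

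In the vestibule the cluster highest in pendrin held 346 cells and was led by Abca13, Il17rb, Slc26a4, Mia and Apoc1. Its libraries gave 712, 837, 771 and 1019 CPM of Slc26a4 (replicates 1, 3, 4 and 5), a mean of 835 ± 133 (SD, n = 4), and it held 49.9% of the vestibular Slc26a4 UMIs. At a resolution of 0.5 the highest vestibular cluster, chosen anew, had 491 CPM. The ranges of the pendrin levels in the 2 clusters overlapped between the organs. Slc26a4 itself chose these clusters, so this describes them and does not compare the organs. At least 1 Slc26a4 UMI was present in 56.4% of the cells of the cochlear cluster (95% exact binomial interval 49.5% to 63.0%) and in 49.4% of those of the vestibular cluster. In macrophages, which should lack pendrin, the shares were 0.773% and 0.847%. The pendrin cells were shallow, with median UMI counts of 1469.5 and 1755.5, against 2394.5 and 2712.5 in macrophages.

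Lower levels of pendrin extended into other epithelial cells. In the cochlea, a cluster of 114 cells led by Lmo3, Rubie, Npnt, Ucma and Rasgef1b had 65.4 to 252 CPM (167 ± 94, n = 3). The Vmo1 Crhbp cluster followed with 82.1, 75.8, 71.9 and 196 CPM (106 ± 60, n = 4), and the ranges of these neighbours overlapped. All 3 cochlear clusters stood above the next in order, a cluster led by Mia and Col11a1 with 25.5 ± 9.1 CPM. In the vestibule, the Vmo1 Cndp1 cluster had 224 ± 82 CPM, the Apoa4 Hpse2 cluster 170 ± 74 and supporting cells 133 ± 33 (n = 4 each), with overlapping ranges between neighbours. Next in order was a cluster led by Tectb and Corin at 21.9 ± 2.3 CPM, which did not overlap with supporting cells.

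Slc26a7 had a different distribution. In the cochlea its level was highest in the cluster of 372 cells led by Vmo1, Crhbp, Dkk2, Tmem72 and Cndp1, at 1437, 2141, 1476 and 1951 CPM (1751 ± 350, n = 4). Vmo1 and Otx2 are markers of the nonsensory roof epithelium, which in the cochlea is Reissner's membrane, and 93.3% of these cells had a Vmo1 UMI and 50.5% an Otx2 UMI. The cluster held too few of the listed roof markers to be named, and is called by its leading genes. At least 1 Slc26a7 UMI was present in 86.0% of its cells (median UMI count 2876), against 0.773% of cochlear macrophages.

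In the vestibule the Vmo1 Cndp1 cluster, of 111 cells, had 3040, 481, 1133 and 1545 CPM of Slc26a7 (1550 ± 1086, n = 4). These libraries spread widely, and the lowest, replicate 3, lay within the range of the second cluster. This was a nonepithelial cluster of 95 cells led by Slc47a1, Abcb1a, Mgp, Hhip and Igfbp6, at 752, 321, 468 and 284 CPM (456 ± 213, n = 4). A similar cochlear cluster led by Slc47a1 and Mgp reached 399 CPM in replicate 3, the only library with at least 10 of its cells, and 48.3% of its 176 cells had a Slc26a7 UMI. In the other vestibular classes the mean level of Slc26a7 was at most 11.6 CPM.

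**Figure D2:**
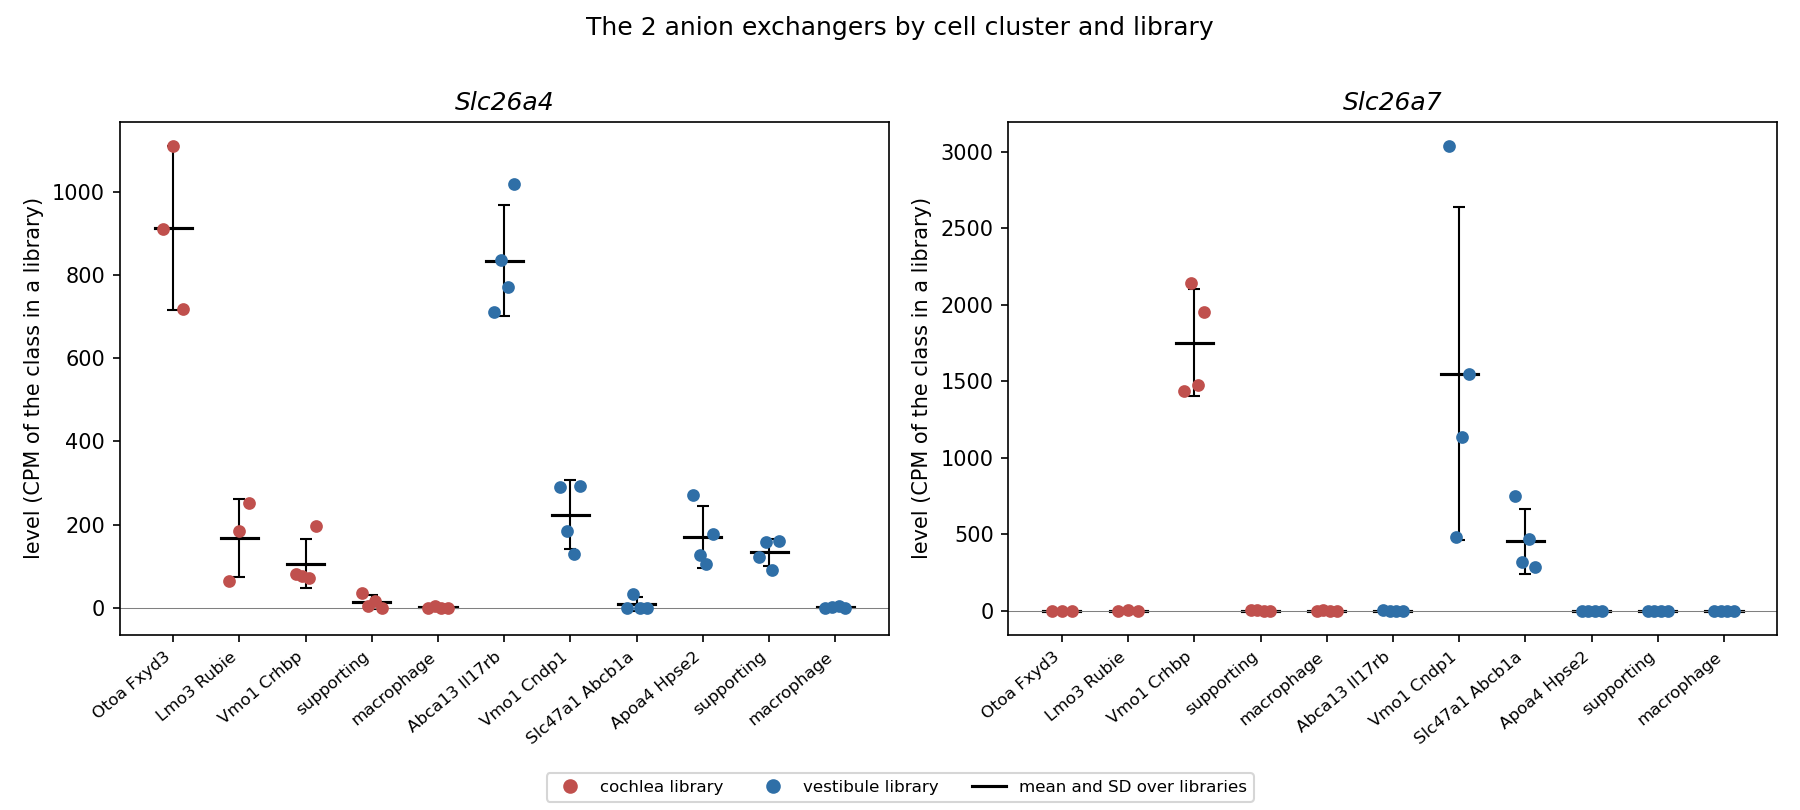
Level of Slc26a4, left, and Slc26a7, right, in CPM per library (points) for selected clusters of the cochlea (red) and the vestibule (blue), with the mean and SD over libraries in black. Slc26a4 peaked in the Otoa Fxyd3 and Abca13 Il17rb clusters, between 712 and 1112 CPM, while Slc26a7 peaked in the 2 Vmo1 clusters, between 481 and 3040 CPM.

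Cells with both exchangers lay almost entirely in the Vmo1 clusters, which held 57 of the 59 such cells of the cochlea and 20 of the 21 of the vestibule. Of the 124 cells with a Slc26a4 UMI in the cochlear Otoa Fxyd3 cluster, 0 had a Slc26a7 UMI, which allows up to 2.42% of cells with a UMI and sets no limit on cells expressing the gene. Of the 171 such cells in the vestibular Abca13 Il17rb cluster, 1 did (0.585%). In the Vmo1 clusters, in contrast, 57 of the 320 cochlear cells with a Slc26a7 UMI also had a Slc26a4 UMI (17.8%, 95% exact interval 13.8% to 22.5%), as did 20 of the 55 vestibular cells (36.4%, 23.8% to 50.4%). Among cells of the same clusters without a Slc26a7 UMI, Slc26a4 was seen in 28.8% of 52 cochlear cells and 19.6% of 56 vestibular cells, so the direction differed between the organs. These differences were not tested, and the Vmo1 clusters were deeper, with medians of 2876 and 2362 UMIs per cell, than the pendrin clusters, with 1469.5 and 1755.5.

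The partners that pendrin has in the endolymphatic sac and the kidney were close to the detection limit. Foxi1 had 16 UMIs in all kept cells of both organs, Atp6v1b1 had 11 and Atp6v0a4 had 36. Foxi1 was seen only in replicate 1 of the cochlea (4 UMIs in 3 cells) and in replicates 3 and 5 of the vestibule (8 UMIs in 4 cells and 4 UMIs in 2 cells). In the other libraries its count of 0 allows a level of up to 0.149 to 0.899 CPM. In the cochlear pendrin cluster, Foxi1, Atp6v1b1 and Atp6v0a4 were each at 0 of 124 pendrin cells. In the vestibular pendrin cluster, 1 of the 171 pendrin cells had Foxi1, with 3 UMIs in replicate 5, and Atp6v1b1 and Atp6v0a4 were at 0, which allows a share of up to 1.75%. At the median depths given above, of 1469.5 and 1755.5 UMIs per cell, low levels of these genes in pendrin cells were not detectable.

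At least 1 of these 3 genes was present in 8 cochlear and 31 vestibular cells, and at least 2 of them in 1 cochlear and 2 vestibular cells. A cell of the vestibular Vmo1 Cndp1 cluster in replicate 5, with 5399 UMIs, had 25 UMIs of Slc26a4, 7 of Atp6v0a4, 1 of Atp6v1b1, 3 of Car2 and 2 of Car12, but 0 of Foxi1. A cell of the cochlear Vmo1 Crhbp cluster in replicate 1, with 4447 UMIs, had 2 UMIs of Foxi1, 1 of Atp6v0a4 and 1 of Slc26a4. The third, in vestibule replicate 3, had 20041 UMIs, with 5 of Foxi1, 5 of Atp6v1b1 and 0 of Slc26a4, and lay in a cluster led by AU040972 and Tmem212, of whose 108 cells 104 came from that library. Doublets were not removed, and whether any of these 3 droplets held more than 1 cell was not tested. These cells were singled out after their values were seen.

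Atp6v0a4 was the most widespread of the 3 genes in the vestibule. Its 32 vestibular UMIs came from all 4 libraries (3, 15, 1 and 13 UMIs in replicates 1, 3, 4 and 5). Of its 24 vestibular cells, 11 were vHCs with 1 UMI each, 5 lay in the Tectb Corin cluster and 5 in a cluster led by Bpifa1 and Serpina7 that came from replicate 3 alone. In the 222 cHCs it was at 0, which allows up to 1.65 CPM, beside 1.38 CPM in vHCs, both pooled over libraries. The all-tissue paralogs of these subunits were seen in the pendrin clusters, where Atp6v1b1 and Atp6v0a4 were at 0. Atp6v1b2 (the B2 subunit) was at 28.1 ± 17.9 CPM in the cochlear (n = 3) and 12.2 ± 15.6 in the vestibular one (n = 4). Of the other vestibular classes only erythroid cells were lower, at 6.17 CPM, and macrophages had 118 ± 78 CPM. Atp6v0a1 (the a1 subunit) was at 112 ± 2.9 and 92.2 ± 28.3 CPM in the 2 pendrin clusters, beside 116 ± 29 CPM in vestibular macrophages.

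Car2, which is abundant in red cells, was highest in erythroid cells of both organs. The cochlear libraries gave 3086, 821 and 924 CPM (replicates 1, 3 and 5, mean 1611 ± 1279, n = 3), and the vestibular libraries 1617, 1809 and 2001 CPM (replicates 3, 4 and 5, mean 1809 ± 192, n = 3). In the cochlea the next classes lay close together. These were the Lmo3 Rubie cluster at 390 ± 98 CPM (n = 3), supporting cells at 384 ± 41 (n = 4) and fibrocytes at 357 ± 51 (n = 4), whose ranges overlapped. In the vestibule the second class was marginal or dark cells, the potassium-secreting cells, at 172 ± 74 CPM, followed by the pendrin cluster at 113 ± 38 CPM (n = 4 each).

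Car2 was found in most cHCs, whereas its level in vHCs was close to that in vestibular macrophages. The cHC libraries gave 319, 170, 196 and 259 CPM (236 ± 67, n = 4), and 147 of 222 cHCs had a Car2 UMI (66.2%, median UMI count 5402), against 7.47% of cochlear macrophages (median 2394.5). The cluster resembling outer HCs had 434, 593 and 678 CPM (replicates 1, 3 and 5, with 8 cells in replicate 4), above the cluster resembling inner HCs with 266, 125, 163 and 188 CPM (replicates 1, 3, 4 and 5). These ranges did not overlap. The vHC libraries gave 10.9, 22.6, 10.2 and 13.5 CPM (14.3 ± 5.7, n = 4), and 95 of 2000 vHCs had a Car2 UMI (4.75%, median UMI count 3799), next to 4.52% of vestibular macrophages (median 2712.5) at 19.2 ± 9.1 CPM.

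Car12 had the opposite pattern, high in vHCs and low in cHCs. The vHC libraries gave 997, 766, 836 and 786 CPM (846 ± 105, n = 4), the highest of any vestibular class, and 1517 of 2000 vHCs had a Car12 UMI (75.9%), against 2.54% of vestibular macrophages. The cHC libraries gave 22.4, 25.5, 3.43 and 3.20 CPM (13.6 ± 12, n = 4), and 15 of 222 cHCs had a UMI (6.76%), against 0.515% of cochlear macrophages. In the cochlea Car12 was highest in the Lmo3 Rubie cluster at 222 ± 31 CPM (n = 3) and in the pendrin cluster at 105 ± 58 (n = 3). The Tectb Corin cluster of the vestibule, which held markers of both HCs and supporting cells, had 347 ± 61 CPM (n = 4), below vHCs in every library.

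Among vHCs, Car12 followed the clusters rich in Adam11, a gene of type I HCs. The 4 clusters with an Adam11 UMI in 74.1% to 93.1% of cells had mean levels of 827 ± 57, 903 ± 85, 1086 ± 134 and 1503 ± 383 CPM of Car12 (n = 4 each), and 73.6% to 96.3% of their cells had a Car12 UMI. The cluster in which 72.5% of cells had a UMI of Sox2, a gene of type II HCs, and 5.56% one of Adam11, had 175, 36.3, 85.0 and 27.2 CPM (80.9 ± 67.8, n = 4), and 9.57% of its 324 cells had a Car12 UMI. Its highest library lay below the lowest library of each Adam11 cluster. Car2 was between 6.21 and 30.6 CPM in all 5 clusters.

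**Figure D3:**
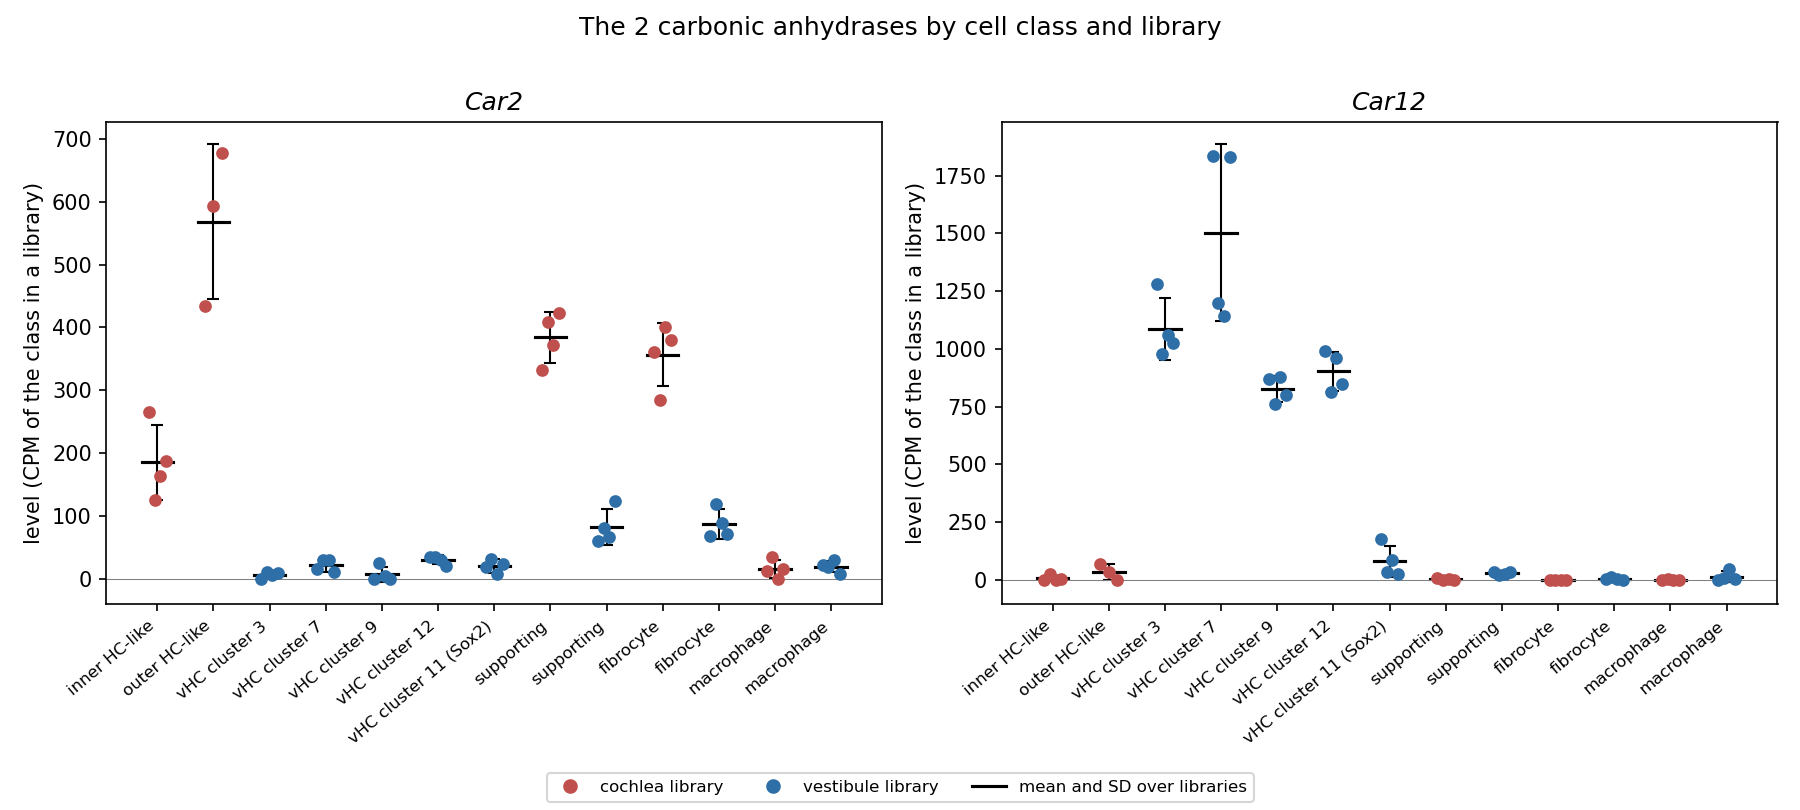
Level of Car2, left, and Car12, right, in CPM per library (points, libraries with at least 10 cells) for HC clusters, supporting cells, fibrocytes and macrophages of the cochlea (red) and the vestibule (blue), with the mean and SD in black. Car2 stood highest in the outer HC-like cluster and in cochlear supporting cells and fibrocytes, and Car12 in the 4 Adam11-rich vHC clusters, above the Sox2-rich cluster.

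HCs with both carbonic anhydrases were few, and 1 of the 2 genes was sparse in each organ. Of the 15 cHCs with Car12, 9 also had Car2, where 66.2% of all 222 cHCs had it. Of the 95 vHCs with Car2, 67 also had Car12, where 75.9% of all 2000 vHCs had it. Neither gene was seen in 69 cHCs and 455 vHCs. In the shallow pendrin clusters few cells had a UMI of either gene. By level, however, the cochlear one ranked 2 among cochlear classes for Car12 and the vestibular one 3 among vestibular classes for Car2. Of the 124 cochlear pendrin cells 8 had Car2 (6.45%, 95% exact interval 2.83% to 12.3%) and 7 had Car12 (5.65%, 2.30% to 11.3%), while 10 (10.4%) and 15 (15.6%) of the 96 cells without a Slc26a4 UMI did. Of the 171 vestibular pendrin cells 18 had Car2 (10.5%, 6.36% to 16.1%) and 15 had Car12 (8.77%, 4.99% to 14.1%), while 22.9% and 6.29% of the 175 other cells did. Median depths were alike, at 1451.5 and 1519 UMIs in the cochlea and 1723 and 1757 in the vestibule. The cluster highest in pendrin was chosen anew under each setting and need not hold the same cells. At a clustering resolution of 0.5, or with at least 2000 UMIs per cell, the cochlear cluster so chosen had 170 or 207 CPM of Slc26a4. Car2 was in 77.1% or 80% of its pendrin cells. At resolution 1 the Lmo3 Rubie cluster had 167 CPM of Slc26a4, with Car2 in 70.2% of its cells. Whether the newly chosen clusters held the cells of the Otoa Fxyd3 cluster was not tested. Only 25.5% of the cells of the Otoa Fxyd3 cluster had at least 2000 UMIs, against 54.3% of all cochlear cells.

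To ask whether the organs differed, UMIs were summed per library and compared with the quasi-likelihood test of edgeR, with Benjamini-Hochberg adjustment over all genes tested and a threshold of 0.05. Differences are log2 fold changes of vestibule over cochlea with their standard errors (SE). The SE was taken as the absolute log2 fold change divided by the square root of the F statistic of the test. Over all cells, 24.7% of the 14530 genes tested passed (13.6% higher in the vestibule, 11.1% higher in the cochlea), and so did 1 of the 4 members tested. Car12 was at 14.1, 15.2, 22.0 and 7.39 CPM in the cochlear libraries and at 316, 205, 242 and 210 CPM in the vestibular libraries, a difference of 4.05 ± 0.30 (adjusted p = 8.46e-06). The groups did not overlap. Over all cells, more cells of a class and more RNA per cell cannot be told apart, and 2000 of 10424 vestibular but 222 of 7272 cochlear cells were HCs.

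The other members did not pass over all cells. Slc26a4 differed by 0.66 ± 0.32 (adjusted p = 0.182) and Car2 by -0.35 ± 0.32 (adjusted p = 0.494). Slc26a7 was at 90.2, 105, 55.1 and 78.7 CPM in the cochlea and at 88.1, 8.31, 13.4 and 39.2 CPM in the vestibule, a difference of -1.21 ± 0.58 (adjusted p = 0.172). Without vestibule replicate 1, the only vestibular library within the cochlear range, this became -1.92 (adjusted p = 0.022), and with all cells thinned to 1000 UMIs -2.02 (adjusted p = 0.00215). Of the 15 alternatives for Slc26a7, 13 did not pass, and the difference closest to no change was -0.85. Foxi1, Atp6v1b1 and Atp6v0a4 were too low to be tested in any comparison.

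Within HCs, both members tested passed, where 37.4% of the 8926 genes did (20.4% higher in vHCs, 17% higher in cHCs). Car2 was lower in vHCs than in cHCs, by -3.88 ± 0.27 (14.7-fold higher in cHCs, adjusted p = 1.19e-09). Car12 was higher in vHCs by 5.65 ± 0.35 (50.3-fold, adjusted p = 3.42e-10). For both genes the 4 libraries of each organ did not overlap. With all cells thinned to 1000 UMIs, which put Car12 in cHCs at 49.1 CPM, the difference of Car12 was 4.13, and without cochlea replicate 3 it was 6.41. Over all alternatives that of Car2 lay between -4.33 and -3.69.

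Within supporting cells, all 3 members tested passed, where 28.9% of the 6200 genes did (16.2% higher in the vestibule, 12.7% higher in the cochlea). Slc26a4 was at 35.8, 4.53, 15.6 and 0 CPM in the cochlea and at 123, 159, 90.9 and 160 CPM in the vestibule, and was higher in the vestibule by 3.76 ± 0.46 (adjusted p = 1.5e-06). Car2 was at 333, 408, 373 and 424 CPM in the cochlea and at 60.1, 81.3, 66.5 and 124 CPM in the vestibule, and was lower there by -2.32 ± 0.24 (adjusted p = 1.41e-07). Car12 was at 3.94 ± 4.94 CPM in the cochlea and 29.7 ± 5.8 in the vestibule, a difference of 3.56 ± 0.55 (adjusted p = 3.24e-05). Beside this last value, vestibular macrophages had 14.5 ± 22.6 CPM of Car12, of which replicate 4 gave 48.1, and the part of free RNA in it was not tested. The class was made of different clusters in the 2 organs, led by Dgkb and by Rbp7 in the cochlea and by Slc6a14 and by Hhla1 in the vestibule. The larger vestibular cluster, of 460 cells, held 254 of the 260 Slc26a4 UMIs, at 155 ± 26 CPM (n = 4). The other, of 98 cells, had 21.2 ± 11.3 CPM (n = 3). The cochlear clusters, of 698 and 131 cells, had 17.6 ± 20.9 and 0.685 ± 1.369 CPM (n = 4 each). Without cochlea replicate 1 the cochlear means of Slc26a4 and Car12 were 6.72 and 1.68 CPM, and the differences were 4.42 and 4.33. Without cochlea replicate 3 the differences were 3.17 and 2.66.

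Fibrocytes differed in Car2, the only member tested there, where 29.6% of the 5179 genes passed (13.8% higher in the vestibule, 15.8% in the cochlea). The cochlear libraries gave 361, 285, 401 and 380 CPM and the vestibular libraries 67.5, 120, 89.4 and 71.6 CPM, a difference of -1.66 ± 0.24 (adjusted p = 7.2e-06). The groups did not overlap. The cochlear fibrocyte class was led by Fxyd2 and Kcnk2, whereas the vestibular clusters were led by Gm525, Otos and Otor. A cochlear cluster led by Otos and Gm525 was left unnamed and had 355 ± 228 CPM of Car2 (n = 4).

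In erythroid cells, where 6.24% of the 3669 genes passed (1.53% higher in the vestibule, 4.72% in the cochlea), Car2 did not (0.93 ± 0.59, adjusted p = 0.408). Without cochlea replicate 1, the highest of the 3 cochlear libraries, the difference was 2.13 (adjusted p = 0.00148). Of the 16 alternatives, 14 did not pass, and the lowest difference was 0.56. No member was high enough to be tested in macrophages, where 0.886% of the 2484 genes passed (0.403% higher in the vestibule, 0.483% in the cochlea). The same was true of T or NK cells, where 0 of the 1655 genes passed with edgeR and 0 with DESeq2, with 76 genes at an unadjusted p under 0.05.

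The clusters highest in Slc26a4 were set beside each other as well. Here 23.1% of the 1414 genes passed (12.9% higher in the vestibule, 10.3% in the cochlea), Slc26a4 itself had chosen the clusters, and the other members were too low to be tested. Car2 was at 77.7, 19.2 and 36.5 CPM in cochlea replicates 3, 4 and 5 and at 64.7, 156, 114 and 115 CPM in vestibule replicates 1, 3, 4 and 5. Car12 was at 69.5, 172 and 73.0 CPM in the cochlea and at 16.2, 63.6, 42.8 and 14.4 CPM in the vestibule. Between the organs the ranges of Car2 overlapped and those of Car12, with 32 and 43 UMIs, did not. The share of all genes without overlap was not counted. In the Vmo1 clusters, described next, Car12 was also too low to be tested and lay the other way. It was at 4.92 ± 3.48 CPM in the cochlear and 33.7 ± 24.6 CPM in the vestibular one.

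In the Vmo1 clusters, a comparison added after the data had been seen, 3.7% of the 2785 genes passed (2.05% higher in the vestibule, 1.65% in the cochlea). Of the 2 members tested 0 passed with edgeR, and 1 had an unadjusted p under 0.05. Slc26a4 was at 82.1, 75.8, 71.9 and 196 CPM in the cochlea and at 291, 184, 128 and 294 CPM in the vestibule, a difference of 1.17 ± 0.36 (adjusted p = 0.0927 with edgeR). It passed without cochlea replicate 5, at 1.56 (adjusted p = 0.0242), and at a clustering resolution of 2, at 1.84 (adjusted p = 0.0093). Of its 17 alternatives, 15 did not pass, and the lowest difference was 0.93. Slc26a7 differed by -0.19 ± 0.41 (adjusted p = 0.855), by 0.11 without vestibule replicate 3, by -0.77 without vestibule replicate 1 and by -1.24 (adjusted p = 0.0594) with at least 2000 UMIs and under 10% mitochondrial UMIs per cell.

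A list of 65 other acid-base genes was followed through the same tests. In HCs, 17 of the 30 listed genes tested passed (56.7%), 9 higher in vHCs and 8 higher in cHCs. Of all genes 37.4% passed, and the median difference was -0.01 for the list against 0.03 over all genes. All 4 other carbonic anhydrases tested passed, in both directions. Car14, a membrane-bound anhydrase, fell from 148 ± 45 CPM in cHCs to 5.75 ± 2.15 in vHCs (-4.44 ± 0.30, adjusted p = 8.79e-10), and the cytosolic Car13 was lower by -2.91. Car3 was higher in vHCs by 4.95, at 32.7, 198, 125 and 41.8 CPM. Its mean in vHCs was 99.4 ± 77.7 CPM. The means were higher in vestibular erythroid cells (138), T or NK cells (150), B lineage cells (152) and granulocytes (168). The part of free RNA in the level of vHCs was not tested. Car3 was at 1005 ± 1294 CPM in vestibular macrophages and at 3196 ± 189 CPM in vestibular fibrocytes.

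Of the 5 bicarbonate transporters of the Slc4 family tested, 4 passed, and all 4 were higher in vHCs, where 20.4% of all genes were. The sodium-bicarbonate cotransporter Slc4a4 was at 177 ± 27 CPM in vHCs and 21.3 ± 9.5 in cHCs (2.93 ± 0.26, adjusted p = 2.04e-08), and Slc4a8, a sodium-driven chloride-bicarbonate exchanger, differed by 3.76. The V-ATPase subunit Atp6v1c2 was higher in cHCs, with a difference of -2.39. Of the 9 tested V1 subunits 2 passed (22.2%), a smaller share than the 37.4% of all genes, and of the 9 tested V0 and accessory subunits 4 passed (44.4%).

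**Figure D4:**
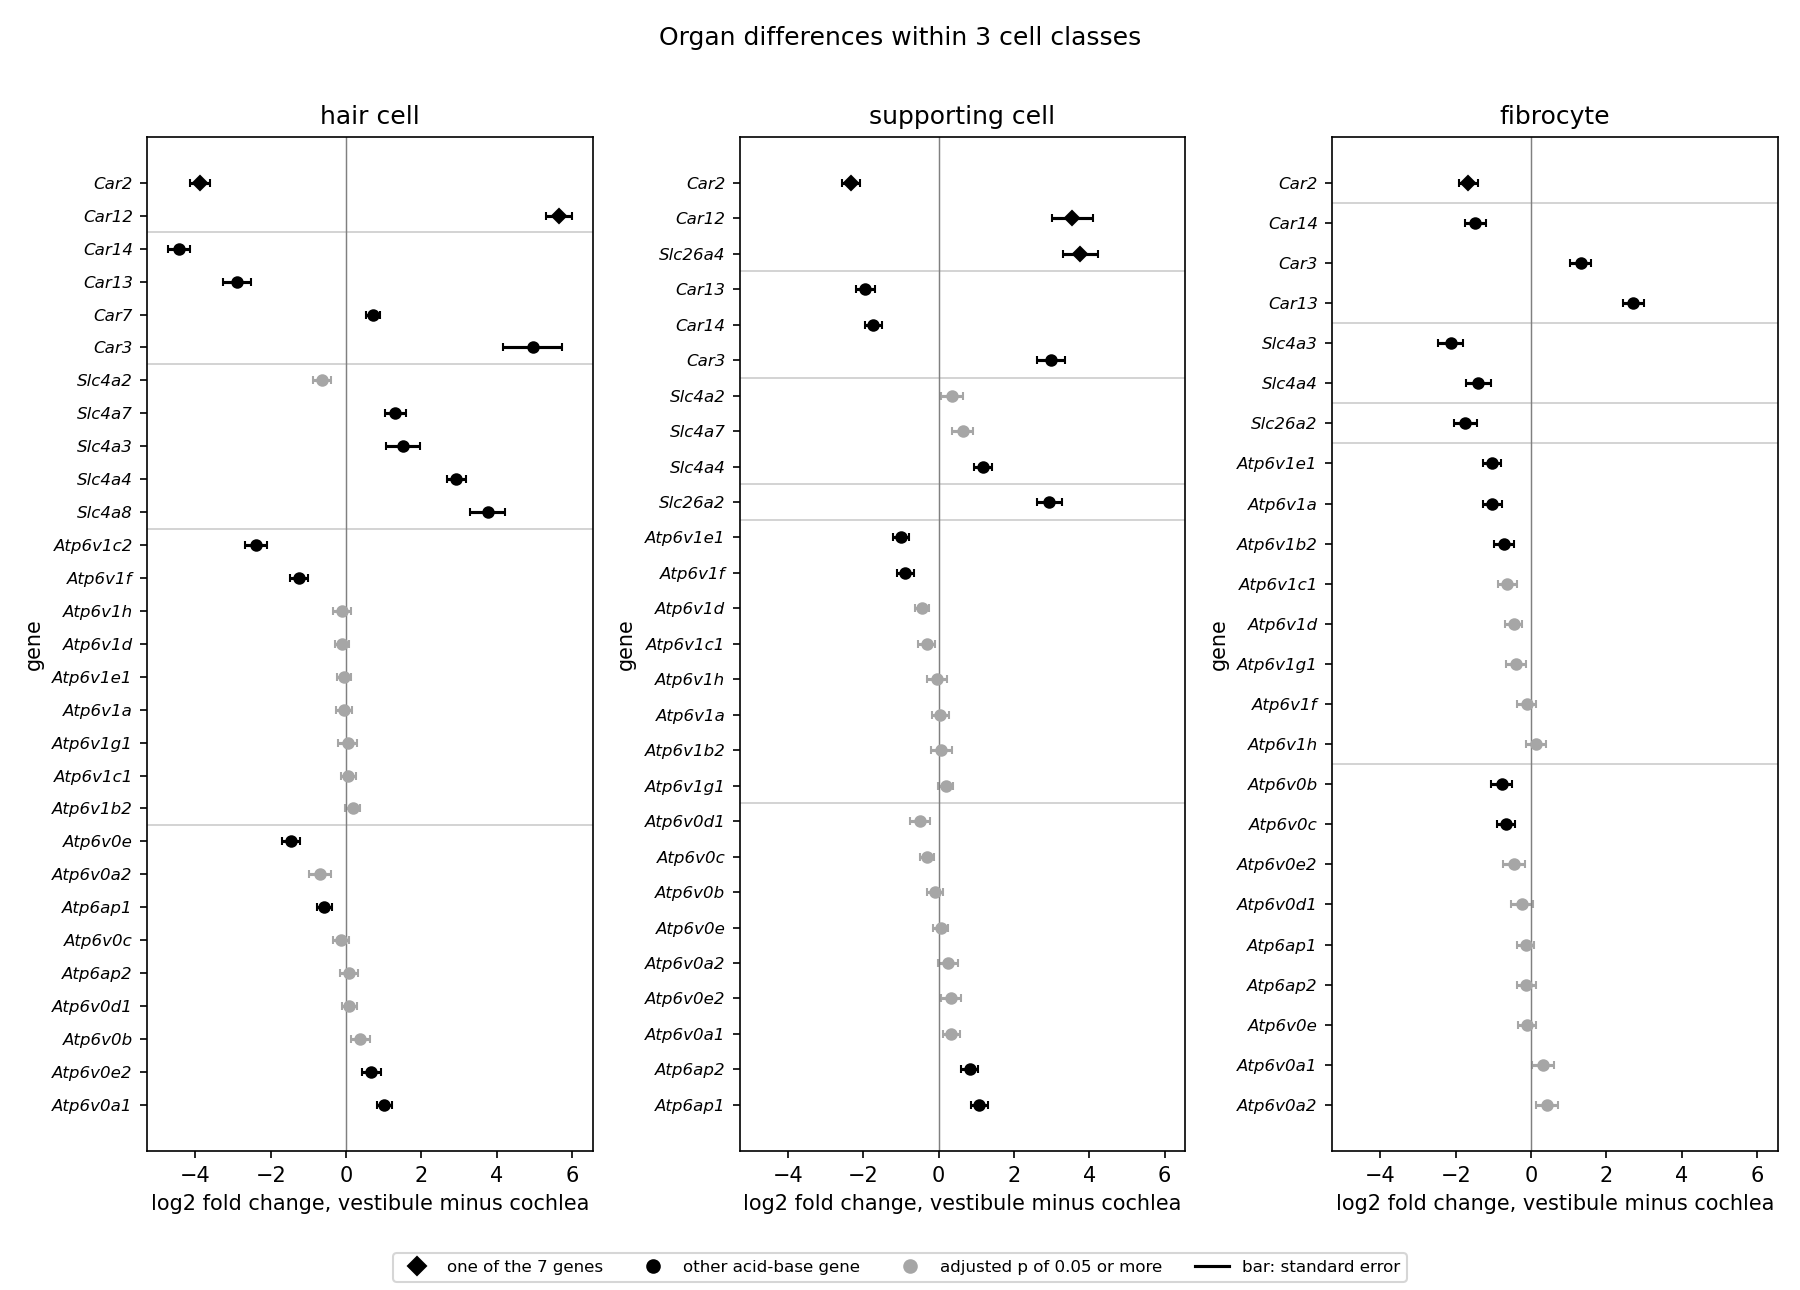
Log2 fold change of vestibule over cochlea with its SE (x axis) for the members (diamonds) and other carbonic anhydrases, Slc4, Slc26 and V-ATPase genes (circles) tested in HCs, supporting cells and fibrocytes, black where the adjusted p was under 0.05 and grey otherwise. Car2 lay to the left of 0 in all 3 classes, at -3.88, -2.32 and -1.66, and Car12 to the right in the 2 classes in which it was tested, at 5.65 and 3.56.

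In supporting cells, 10 of 29 listed genes passed, 5 in each direction (34.5%, against 28.9% of all genes, median 0.07 against -0.02). The sulfate transporter Slc26a2 was at 7.62 ± 2.87 CPM in the cochlea and 76.9 ± 25.7 in the vestibule (2.93 ± 0.33, adjusted p = 4.86e-07), and Slc4a4 was higher in the vestibule by 1.18. Car3 differed by 2.98, but its vestibular mean of 117 ± 48 CPM was below the means in vestibular erythroid and immune cells given above. The part of free RNA in this mean was not tested. Higher in the cochlea were Slc9a9, a sodium-proton exchanger of endosomes (-3.07), Car13 (-1.95) and Car14 (-1.73). In fibrocytes, 11 of 23 passed (47.8%, against 29.6% of all genes, median -0.45 against 0.03), 2 higher in the vestibule, Car13 (2.72) and Car3 (1.32), and 9 higher in the cochlea, led by the anion exchanger Slc4a3 (-2.14), Slc26a2 (-1.75) and Car14 (-1.48). Slc26a2 and Car13 thus had opposite signs in supporting cells and fibrocytes, and whether these differences differ was not tested.

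Over all cells, 14 of the 45 listed genes tested passed (31.1%, against 24.7% of all genes), 5 higher in the vestibule, led by Car7 (2.27), Slc4a4 (1.46) and Car3 (1.46), and 9 higher in the cochlea, led by Slc4a11 (-2.68), Car13 (-1.37) and Car5b (-1.33). In the pendrin clusters 2 of 11 passed (18.2%, against 23.1% of all genes). Car3 was at 607, 1013, 771 and 373 CPM in the vestibular cluster and at 49.1, 0 and 0 CPM in the cochlear one (4.62 ± 0.55, adjusted p = 7.82e-05), beside the macrophage level given above, and the V1 subunit Atp6v1f was lower in the vestibule by -0.95. In the Vmo1 clusters 1 of 18 passed (5.56%, against 3.7%), Car13, at -1.26. In erythroid cells 2 of 16 passed (12.5%, against 6.24% of all genes) and in macrophages 1 of 16 (6.25%, against 0.886%). In T or NK cells 0 of 5 passed, where 0 of all 1655 genes tested did.

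The genes with the profiles most like those of the members were found by Pearson correlation of log2(CPM + 1) over 37 class-by-organ profiles, which share libraries and cell numbers. For Slc26a4 they were Sfrp1, a secreted Wnt antagonist (0.88), Lemd1 (0.83) and Acat3 (0.82). Sfrp1 was highest in the same Abca13 Il17rb cluster of the vestibule, at 804 CPM. For Slc26a7 they were the transcription factor Mecom (0.83), Otx2os1 (0.81) and the calcium-activated chloride channel Ano1 (0.79), all highest in the cochlear Vmo1 Crhbp cluster. For Car12 they were Pdzd7, a protein of the stereocilia ankle links (0.82), Epn3 (0.76) and Ccdc68 (0.75). Car2 had the least similar neighbours, Fam220a (0.64), Fech, an enzyme of heme synthesis (0.63), and Mtfr1 (0.62). Foxi1, Atp6v1b1 and Atp6v0a4 had fewer than 50 UMIs and were not compared.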

How the data were processed

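Single-cell libraries (Chromium 3′) of the cochlea and vestibule were analysed as deposited. The authors made counts of UMIs per gene and barcode with Cell Ranger on mm10 (6.1.2 per the labels, 5.0.1 in the headers of replicates 1 and 2), without normalization. Barcodes with fewer than 200 genes, fewer than 1000 UMIs or 25% or more mitochondrial UMIs were dropped. Each organ was clustered in Seurat 5.3.0 (R 4.3.3) with 2000 variable genes, less 13 cochlear and 18 vestibular acid-base genes, 30 principal components and resolution 1, without integration or doublet removal. A cluster was named with at least 3 enriched markers of a list, those in at least 25% of cells with a log2 fold of at least 1. Tests used edgeR 4.0.16 (TMM, filterByExpr, quasi-likelihood) on UMIs summed per library over classes with at least 10 cells in at least 3 libraries per organ, and were tested on simulated data; DESeq2 1.42.0 was an alternative. Intervals are exact binomial at 95%, and a count of 0 allows 3 counts; both cover counting error only. The genes named are the 7 members, up to 3 listed genes per direction with the largest change among those passing, the 3 most similar genes (at least 50 UMIs) and the leading genes of clusters. Members and lists were chosen with earlier results of these data known. Young libraries were not analysed here. Gene positions are those of GENCODE M21, and promoters those of RefSeq.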

Additional observations from a re-analysis of the deposited data

Results flagged for a closer look

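In the cochlear Vmo1 Crhbp cluster, replicate 5 had 196 CPM of Slc26a4, while the other 3 libraries had 71.9 to 82.1 CPM. The gap to the nearest library was 0.917 of the whole range, above Dixon's 95% critical value for 4 samples. It was the only one of the 25 groups of 4 libraries checked to exceed this value, and chance exceeds it in about 1 group in 20.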

How the results depend on the processing

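Of the 211 alternative values of the members' organ differences, 204 kept their direction and their side of the threshold and 6 moved past it. The only reversal was that of Slc26a7 in the Vmo1 clusters, at 0.11 (adjusted p = 0.952) without vestibule replicate 3, within a leave-one-out range of -0.77 to 0.11 and with -1.24 under the stricter cell filter. The differences in HCs, supporting cells and fibrocytes passed under every alternative in which the gene was tested. These were 18 per gene in HCs and fibrocytes, but 15 or 16 in supporting cells. Same-numbered cochlear and vestibular libraries correlated at 0.0434, 0.214, 0.255 and 0.0607 in their deviations from the organ means, and not every library correlated best with its own number, so the numbers were not taken as pairs. The replicate block raised the erythroid Car2 difference to 1.86 (adjusted p = 0.00384) and otherwise changed no member's call; it gave 490 genes in erythroid cells, 9 in macrophages and 23 in T or NK cells, against 229, 22 and 0.

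Counts of genes moved by over 1.5 times in 37 of 151 cases. With cells thinned to 1000 UMIs, 2004 genes passed over all cells, 24 in erythroid cells, 526 in fibrocytes, 853 in HCs, 6 in macrophages, 583 in supporting cells, 193 in the Slc26a4 clusters and 37 in the Vmo1 clusters. Without a filter on low counts the counts were 500 in erythroid cells, 2559 in fibrocytes, 175 in macrophages, 3172 in supporting cells, 30 in T or NK cells, 674 in the Slc26a4 clusters and 399 in the Vmo1 clusters. DESeq2 gave 137 in erythroid cells. With at least 2000 UMIs and under 10% mitochondrial UMIs the counts were 824 in fibrocytes, 6 in macrophages and 166 in the Vmo1 clusters. With acid-base genes among the variable genes fibrocytes gave 2516. The Slc26a4 clusters gave 791 at resolution 0.5 and the Vmo1 clusters 191 at resolution 2, each chosen anew. Leaving out each library gave 39 to 859 genes in erythroid cells, 0 to 62 in macrophages, 0 to 2 in T or NK cells and 61 to 211 in the Vmo1 clusters.

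Levels moved by more than 1 SD in 8 of 147 cases. The clusters highest in Slc26a4 and in Slc26a7 were chosen anew for each clustering and cell filter, and need not hold the same cells. In the cochlear cluster so chosen Slc26a4 was at 170.3 CPM at resolution 0.5 and 207.1 under the stricter cell filter. It was at 576.2 with acid-base genes among the variable genes, and in the vestibular cluster at 490.9 at resolution 0.5. Cochlear Slc26a7 was at 2278 CPM in its highest cluster under the stricter filter and 2186 when thinned, Car2 in cochlear supporting cells at 432.7 when thinned and Car12 in cHCs at 49.13 when thinned. Of the pendrin cells of the newly chosen cochlear clusters, Car2 was in 77.08% and 80% at resolution 0.5 and under the stricter filter. Car12 was in 70.83% and 74.29% of them. Leaving out each library gave cochlear shares of 2.703% to 7.477% for Car2. In the vestibule Car2 was in 21.74% under the stricter filter and 4.286% when thinned, and Car12 in 2.143% when thinned. The share of vestibular pendrin cells with Foxi1, Atp6v1b1 or Atp6v0a4 was 0 with acid-base genes among the variable genes, under the stricter filter and when thinned, and 0 to 1.852% over the leave-one-out runs, at 0 without vestibule replicate 5. The cause of these changes was not tested.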
